A study of Homo sapiens with 36 samples.

Results

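The RNA response to arsenite was followed in HEK293T cells that lacked TXNL1 and carried an empty vector in place of a complementing TXNL1 gene. The members are the libraries that the labels give as TXNL1 KO, vector, treated with arsenite or with DMSO. They are 6 of the 36 libraries of the series, with 3 replicates per group. HEK293T is a human embryonic kidney line. The KO cells were made with a CRISPR guide and grown out from single sorted cells as clones, with no statement of how many clones were used here, and the control group carries the same knockout and vector as the treated group. Arsenite was given at 100 µM for 6 h. The control cells are DMSO-treated in the labels and untreated in the methods, and are called untreated here. The other 30 libraries come from the same vector line under hydrogen peroxide and from KO cells complemented with WT, DRRD or SxxS TXNL1 under all 3 treatments. The treatments were done in triplicate, and nothing says that the replicates were separate cultures, so the p-values measure the spread between these samples, which may be technical.

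Arsenite binds closely spaced protein thiols. In cultured cells it is known to unfold proteins, to raise oxidants and to displace zinc from its protein sites. The usual sensors are HSF1, which drives chaperone genes through heat shock elements, MTF1, which drives metallothioneins through metal response elements, NRF2, which acts through antioxidant response elements, and the eIF2 alpha kinases, whose output is the transcription factor ATF4. TXNL1 is a thioredoxin-like protein that binds the 19S regulatory particle of the proteasome, which degrades misfolded proteins.

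TXNL1 transcripts were still counted in the KO line. Levels are given as CPM, each gene's counts scaled to a common library total. TXNL1 stood at 31.7, 31.6 and 28.6 CPM in the 3 untreated vector libraries, and at 53.4 to 62.9 CPM as group means in the untreated complemented lines. After arsenite the vector libraries held 71.9, 67.9 and 68.2 CPM. The 2 groups did not overlap, and the log2 fold change was 1.18 ± 0.06 (SE, adjusted p = 2.63e-16). Counting reads on the whole gene does not show whether the edited transcript encodes protein.

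Library totals ran from 53581560 to 59983836 counts in untreated vector cells and from 45758737 to 127848785 after arsenite, so the treated group held both the shallowest and the deepest of the 6. The vector libraries lay close to their groups (SD of log2 levels from the group median 0.061 to 0.095), whereas WT arsenite replicate 1 and WT hydrogen peroxide replicate 2, used for the common spread and for the comparison of lines, stood apart at 0.476 and 0.542. All levels are shares of a library, and in such bulk samples fewer cells and less RNA per cell cannot be told apart. All 7 genes taken as marking HEK293 cells were tested, and they summed to 531 to 551 CPM untreated and 540 to 570 CPM with arsenite. Of 5 leukocyte markers 2 were tested, and their sum was 1.59 to 2.07 CPM untreated and 2.61 to 3.402 CPM with arsenite, whose part in any result was not tested. The endothelial, erythroid and hepatocyte markers each summed to at most 0.22 CPM. The 4 fibroblast markers, which many cultured lines also express, summed to 23.9 to 31.9 CPM. Exons of 12801 of the tested genes (57.1%) share positions with another gene on either strand. Of the genes given below by library, TXNL1, DNAJB1, HSPA8, HSPA1B, ZFAND2A, NFE2L1, PSMD7, MT1X, SRXN1, MYC, VEGFA, ID2, CCNL1, MT-ATP8, MT-CO3 and the snoRNA hosts called higher are among these, and their counts are uncertain to that extent.

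At an adjusted p under 0.05, 9763 of 22486 tested genes (43.4%) were called, 4962 (22.1%) higher and 4801 (21.4%) lower after arsenite. The log2 fold change was 1 or more in 1557 of those called higher and -1 or less in 1311 of those called lower, and its size was 2 or more in 314 and 190. The median over all tested genes was 0.04. In 33.4% of genes all 3 arsenite libraries lay above all 3 untreated ones, and in 29.9% all lay below. Among the protein-coding genes tested, 25.3% were called higher and 25.7% lower, the background for the counts of protein-coding lists below. The 15 largest rises among protein-coding genes, in order, were HSPA6, EGR1, FOS, GCM1, NHLH1, FOSB, CCNL1, ATF3, ZNF34, BAG3, MT2A, ZFAND2A, MAFF, DUSP8 and DNAJB1. The 15 largest falls were GAS1, ID2, MFSD5, MED9, ETAA1, HPS6, KCNJ8, MYC, ZSWIM1, ZBTB9, FRAT2, EPOP, INTS5, HOXA13 and SNN.

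**Figure D1:**
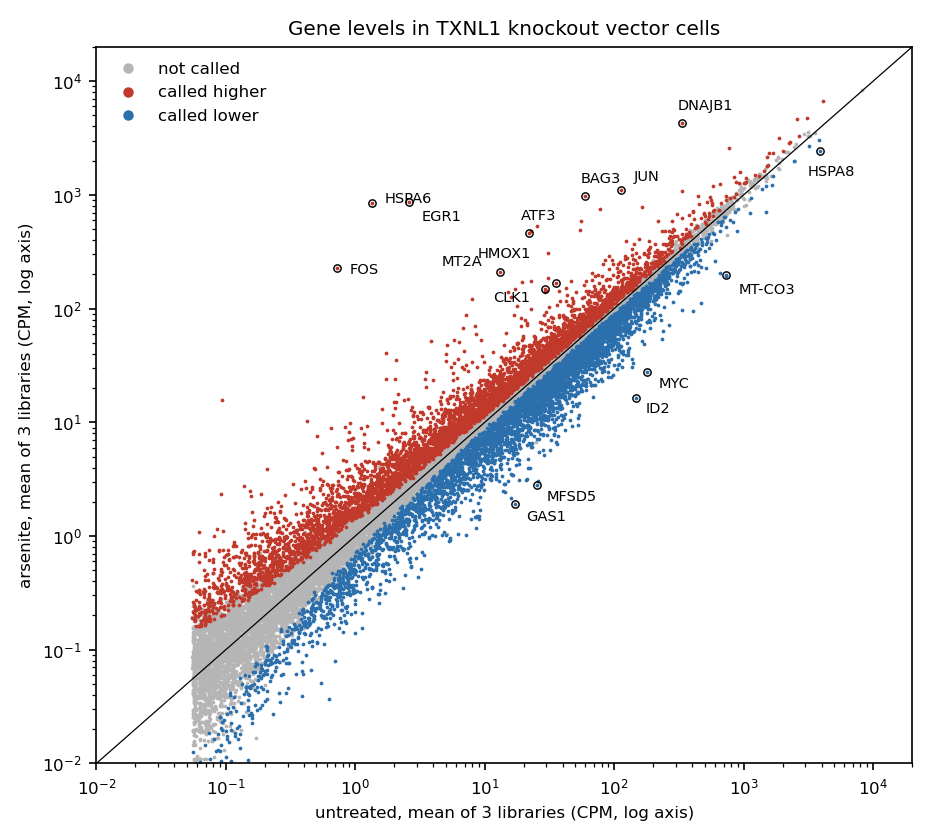
Mean CPM of each tested gene in the 3 untreated (x) and 3 arsenite (y) vector libraries on log axes, coloured by call, with the line of equal levels. HSPA6, EGR1 and FOS stand farthest above the line and GAS1, MFSD5, ID2 and MYC well below it. Genes under 0.01 CPM after arsenite fall outside the frame.

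The sequence before the start site was read for 4 strongly induced genes, because each is the called member with the largest rise in its list that holds the element by which its pathway is known to act. The sequences are the 250 bases upstream of the RefSeq start on GRCh38.p14, plus strand, with each match to the searched letters in capitals. HSPA6, a single-exon gene at chr1:161524540-161526894, has its window at chr1:161524290-161524539 and is shown for GAANNTTC or TTCNNGAA, the heat shock element. MT2A (chr16:56608334-56608583) is shown for TGCGCNC or TGCACNC, the metal response element. EGR1 (chr5:138465229-138465478) is shown for the CArG box bound by SRF, and CHAC1 (chr15:40953221-40953470) for TGATGNAA, the composite element bound by ATF4 with C/EBP partners. Both strands were searched, and overlapping matches were counted.
HSPA6: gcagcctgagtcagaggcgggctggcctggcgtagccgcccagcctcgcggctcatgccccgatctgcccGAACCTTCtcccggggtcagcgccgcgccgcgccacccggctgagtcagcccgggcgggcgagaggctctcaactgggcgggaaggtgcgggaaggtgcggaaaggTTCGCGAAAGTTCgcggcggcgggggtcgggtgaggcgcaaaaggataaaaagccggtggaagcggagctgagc
MT2A: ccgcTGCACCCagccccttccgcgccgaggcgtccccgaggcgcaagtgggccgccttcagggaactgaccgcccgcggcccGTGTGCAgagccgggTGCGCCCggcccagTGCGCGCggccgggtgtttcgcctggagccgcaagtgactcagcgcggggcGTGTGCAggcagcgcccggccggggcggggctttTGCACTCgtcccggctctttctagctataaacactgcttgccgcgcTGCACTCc
EGR1: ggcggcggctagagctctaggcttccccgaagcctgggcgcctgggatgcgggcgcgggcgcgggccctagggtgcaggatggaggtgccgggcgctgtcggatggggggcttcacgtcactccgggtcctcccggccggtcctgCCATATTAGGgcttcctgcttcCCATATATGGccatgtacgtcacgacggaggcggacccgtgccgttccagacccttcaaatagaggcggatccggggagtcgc
CHAC1: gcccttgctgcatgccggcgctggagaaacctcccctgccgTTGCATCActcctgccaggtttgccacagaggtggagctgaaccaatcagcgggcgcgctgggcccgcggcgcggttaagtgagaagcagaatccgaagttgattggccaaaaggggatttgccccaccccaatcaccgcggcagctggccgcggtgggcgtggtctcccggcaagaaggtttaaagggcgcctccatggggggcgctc

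HSPA6 held 3 heat shock elements, 2 of them overlapping, between 180 and 69 bases before its start. The element was found in 11 of 27 heat shock genes with a window and in 11.7% of all 27305 windows. MT2A held 7 metal response elements. At least 1 was found in 5 of 8 metallothionein and zinc genes and in 24.7% of all windows, and at least 2 in 4 of 8 and in 6.51%. Among windows of tested genes the shares were 32.7% and 9.44%, and 13 of 25 immediate early genes also held at least 1. EGR1 held 2 CArG boxes, and the other listed immediate early gene with a match was SRF (2 of 25, against 1.14% of all windows). CHAC1 held 1 composite element, which occurred in 3 of 26 integrated stress response genes and 3.19% of all windows. A match to the letters did not go with one direction of change. HSPA8, with 4 heat shock elements, was called lower, and so was TXNRD1, with 1 antioxidant response element (TGACNNNGC).

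Chaperones and co-chaperones rose, among them the gene with the largest log2 rise of all. Of 30 heat shock genes 29 passed the filter, 21 were called higher and 1 lower, and the median log2 fold change was 0.62. The summed level rose from 18781 ± 258 to 30979 ± 30.3 CPM (SD, n = 3). HSPA6, an Hsp70 that is nearly silent without stress, had 1.12, 1.45 and 1.505 CPM untreated and 890, 815 and 852 CPM with arsenite. Its log2 fold change was 9.30 ± 0.48 (adjusted p = 7.48e-16), although HSPA6 shares near-identical sequence with HSPA7 and the split of reads between them is uncertain. BAG3, which couples Hsp70 to selective autophagy, went from 56.9, 58.9 and 61.3 CPM to 1007, 992 and 948 CPM. DNAJB1, the Hsp40 partner of inducible Hsp70, went from 333, 319 and 350 CPM to 4453, 4210 and 4283 CPM. In each of these 3 genes all treated libraries lay far above all untreated ones, and the log2 fold changes of BAG3 and DNAJB1 were 4.06 ± 0.06 and 3.69 ± 0.07.

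The rest of the network moved less. HSPH1 (Hsp110, the Hsp70 exchange factor) rose by a log2 of 1.68, SERPINH1 (the collagen chaperone) by 1.66, DNAJB6 by 1.23, and the Hsp90 activator AHSA1 by 1.02. The Hsp90 genes HSP90AB1 and HSP90AA1 rose by 0.85 and 0.62, and the mitochondrial chaperonin HSPD1 by 0.55, while its partner HSPE1 was not called (-0.10). HSPA8, the constitutive Hsp70, was the exception, with 4025, 3870 and 3853 CPM untreated and 2441, 2451 and 2424 CPM after arsenite, a log2 fold change of -0.68 ± 0.05 (adjusted p = 1.41e-11). Of the heat shock factors, HSF2 stood at 0.19 (adjusted p = 0.045, lost in 12 alternatives), and HSF1 stood at 0.02 and was not called. HSPA1A and HSPA1B encode the same protein from near-identical sequence, so their separate values are uncertain. HSPA1B held 1596, 1413 and 1571 CPM untreated and 1474, 1393 and 1393 CPM treated (log2 fold change -0.10, not called). HSPA1A held 149, 270 and 300 CPM against 380, 353 and 371 CPM, with an adjusted p of 0.046, and this call was lost in 10 of the alternatives.

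Genes for ubiquitin and the handling of misfolded proteins rose as well. Of 24 genes 16 were called higher and 3 lower (median 0.33). ZFAND2A, an arsenite-inducible proteasome-associated zinc finger protein, went from 6.80, 8.74 and 8.22 CPM to 128, 118 and 120 CPM, a log2 fold change of 3.95 ± 0.18. The polyubiquitin gene UBB rose by 0.47, the autophagy receptor SQSTM1 by 0.83, the autophagosome protein GABARAPL1 by 1.44 and the segregase VCP by 0.50. The 3 that fell were NFE2L1 (-1.01), the transcription factor known to raise proteasome subunit genes, the protease DDI2 that cleaves it (-1.09), and the shuttle factor UBQLN2 (-1.01). NFE2L1 held 108, 108 and 113 CPM untreated and 53.2, 55.3 and 54.6 CPM treated.

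Proteasome subunit genes rose modestly. Of 33 genes 18 were called higher and 0 lower, with a median of 0.27 and no member reaching a log2 fold change of 1. The number called higher was 13 to 17 with any single vector library left out. The summed level was 5943 ± 59.6 CPM untreated and 7439 ± 102 CPM treated. The largest rises were in regulatory particle genes. PSMD7 went from 158, 156 and 152 CPM to 280, 288 and 287 CPM (0.87 ± 0.12). PSMC2, an ATPase of the base, rose by 0.80, the ubiquitin receptor ADRM1 by 0.76, and PSMD1, the scaffold of the base, by 0.65. PSMD14, the deubiquitinase of the lid, rose by 0.54. Of the catalytic core subunits, PSMB7 was called higher at 0.42 (adjusted p = 0.020, lost in 3 alternatives), and PSMB5 and PSMB6 were not called, at -0.18 and 0.12.

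Metal response genes were among the most induced. Of 14 metallothionein and zinc genes only 7 passed the filter, 4 were called higher and 1 lower. MT2A went from 13.5, 12.7 and 12.8 CPM to 264, 167 and 195 CPM (log2 fold change 4.002 ± 0.29), with the treated libraries further apart than the untreated ones. MT1X went from 14.8, 15.3 and 15.5 CPM to 153, 124 and 141 CPM (3.198 ± 0.23). Metallothioneins bind zinc, copper and arsenic through clustered cysteines, and their genes are alike enough in sequence for the split of reads among them to be uncertain. SLC30A1, the zinc exporter of the plasma membrane, rose by 1.57, and SLC30A5, which loads zinc into the secretory pathway, fell by 0.61. MTF1, the metal sensor, was not called (-0.21).

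The NRF2 list held genes called in both directions. Of 29 genes 24 passed the filter, 7 (29.2%) were called higher and 7 (29.2%) lower, and the median was 0.10. These shares were close to the 25.3% and 25.7% of all protein-coding genes tested. Without arsenite replicate 1 the number called lower was 4. Haem oxygenase HMOX1 went from 36.2, 34.99 and 36.3 CPM to 176, 161 and 169 CPM (2.24 ± 0.11). The small Maf protein MAFF rose by 3.85, NFE2L2, which encodes NRF2, by 1.46, the exporter ABCC2 by 1.67 and the cystine transporter SLC7A11 by 1.01. Ferritin light chain FTL rose by 0.51. Several thiol-reducing enzymes went the other way: sulfiredoxin SRXN1 held 39.6, 38.1 and 38.4 CPM untreated and 16.7, 17.2 and 17.3 CPM treated (-1.18 ± 0.06), GCLC, the catalytic subunit of glutathione synthesis, fell by 0.58, and thioredoxin reductase TXNRD1 fell by 0.43. GCLM, NQO1 and TXN were not called, at 0.02, -0.09 and 0.09. With the 6 vector libraries fitted alone, 13 genes of the list were called higher.

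Immediate early genes are switched on within minutes of many stimuli and encode mainly transcription factors and phosphatases. Of 34 tested genes out of 35, 20 (58.8%) were called higher and 10 (29.4%) lower, with a median of 0.92. EGR1 went from 1.65, 3.24 and 2.86 CPM to 914, 887 and 810 CPM (8.40 ± 0.33, adjusted p = 1.80e-18). FOS went from 0.609, 0.924 and 0.624 CPM to 234, 225 and 227 CPM (8.31 ± 0.24). JUN, the usual partner of FOS, went from 107, 113 and 120 CPM to 1194, 1083 and 1056 CPM (3.29 ± 0.08). In all 3 genes every treated library lay above every untreated one by a wide margin. ATF3, a stress-induced repressor and activator, rose by 4.41, FOSB by 4.56, the JNK and p38 phosphatases DUSP8 and DUSP1 by 3.76 and 2.56, and the growth arrest gene GADD45B by 3.60.

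Other members of that class fell. MYC, the growth regulator with a short-lived transcript, held 178, 177 and 179 CPM untreated and 29.6, 28.0 and 26.2 CPM treated (-2.67 ± 0.05, adjusted p = 6.13e-26). DUSP2, a phosphatase of ERK and p38, fell by 2.11, IER5 by 2.04, KLF6 by 1.75, IER3 by 0.95, JUNB by 0.74 and SRF by 0.27. Within the AP-1 families FOS, FOSB, FOSL1, FOSL2, JUN and JUND were thus called higher and JUNB lower.

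**Figure D2:**
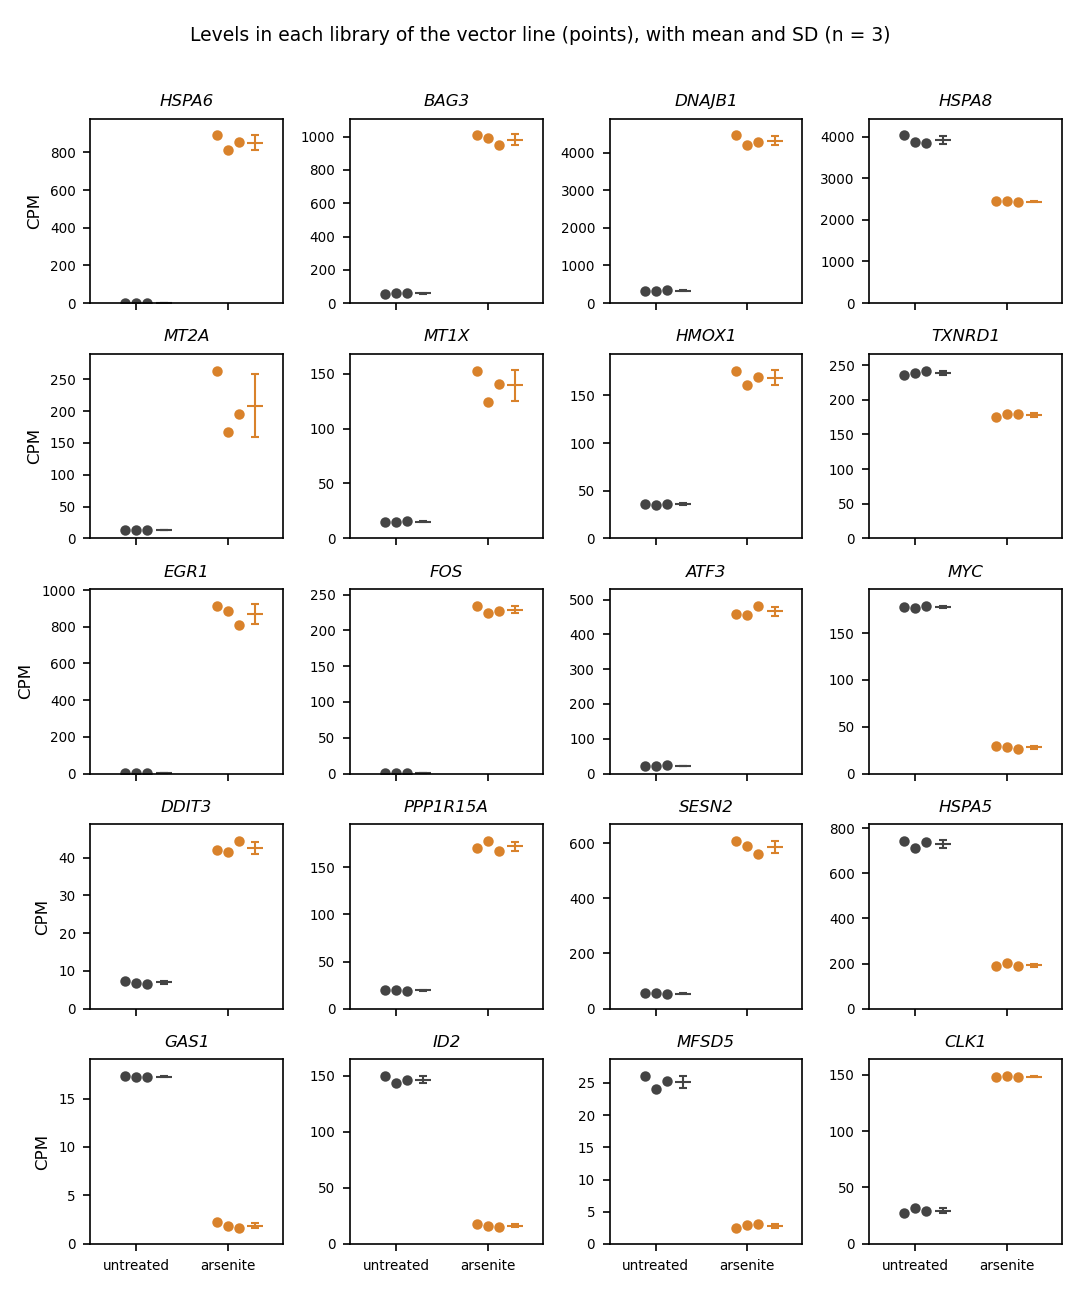
CPM of 20 genes in each of the 6 vector libraries (points: grey untreated, orange arsenite), with the mean and SD beside them (n = 3), each axis starting at 0. In each panel the 3 arsenite libraries lie on one side of the 3 untreated ones, and the treated libraries of MT2A range from 167 to 264 CPM.

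The integrated stress response, in which phosphorylated eIF2 alpha favours translation of ATF4, rose as a list. Of 33 genes 30 passed the filter, 18 were called higher and 4 lower, with a median of 0.47. The number called lower was 2 without untreated replicate 1, without untreated replicate 2 or without arsenite replicate 3. SESN2, a leucine sensor that restrains mTORC1, went from 55.3, 55.9 and 53.7 CPM to 607, 588 and 561 CPM (3.41 ± 0.06). PPP1R15A, which directs the phosphatase of eIF2 alpha, went from 19.8, 20.05 and 18.5 CPM to 170, 178 and 168 CPM (3.14 ± 0.08). CTH, the cysteine-forming enzyme of transsulfuration, rose by 3.10. The factor DDIT3 (CHOP) rose by 2.61, CHAC1, which degrades glutathione, by 2.49, the mTORC1 inhibitor DDIT4 by 2.37, the heavy chain SLC3A2 of amino acid transporters by 2.26, and TRIB3 by 1.17. Enzymes of serine and asparagine synthesis rose less, with ASNS at 0.85, PSAT1 at 0.60 and PHGDH at 0.49. The ATF4 transcript itself rose by 0.37, a call lost when the untreated replicate 3 was left out (adjusted p = 0.062). ATF5 fell by 1.27. CEBPB stood at -0.68 (adjusted p = 0.026), a call lost in 5 alternatives, 4 of which left out 1 library (largest adjusted p = 0.139).

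Cytosolic tRNA synthetases, many of which are ATF4 targets, gave 9 higher and 1 lower of 20. CARS1 rose by 1.602, GARS1 by 1.15, YARS1 by 1.13 and TARS1 by 0.83. RARS1, the one called lower, stood at -0.24, and lost its call with the GC offset (largest adjusted p = 0.165). Of 27 genes of the unfolded protein response of the endoplasmic reticulum 12 (44.4%) were called lower, 5 (18.5%) higher and 10 neither (median -0.24). HSPA5 (BiP), its main Hsp70, held 743, 711 and 741 CPM untreated and 189, 201 and 190 CPM treated, a log2 fold change of -1.92 ± 0.05 (adjusted p = 1.73e-22). SEL1L, of the degradation machinery, fell by 1.33, the co-chaperones DNAJB9 and DNAJC3 by 1.32 and 0.73, the kinase gene EIF2AK3 (PERK) by 1.17, PDIA4 by 0.61 and HSP90B1 by 0.51. XBP1, which encodes a transcription factor of this response, rose by 1.16, the sensor gene ERN1 (IRE1) by 1.00 and HERPUD1 by 0.51. Gene counts do not separate spliced from unspliced XBP1.

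**Figure D3:**
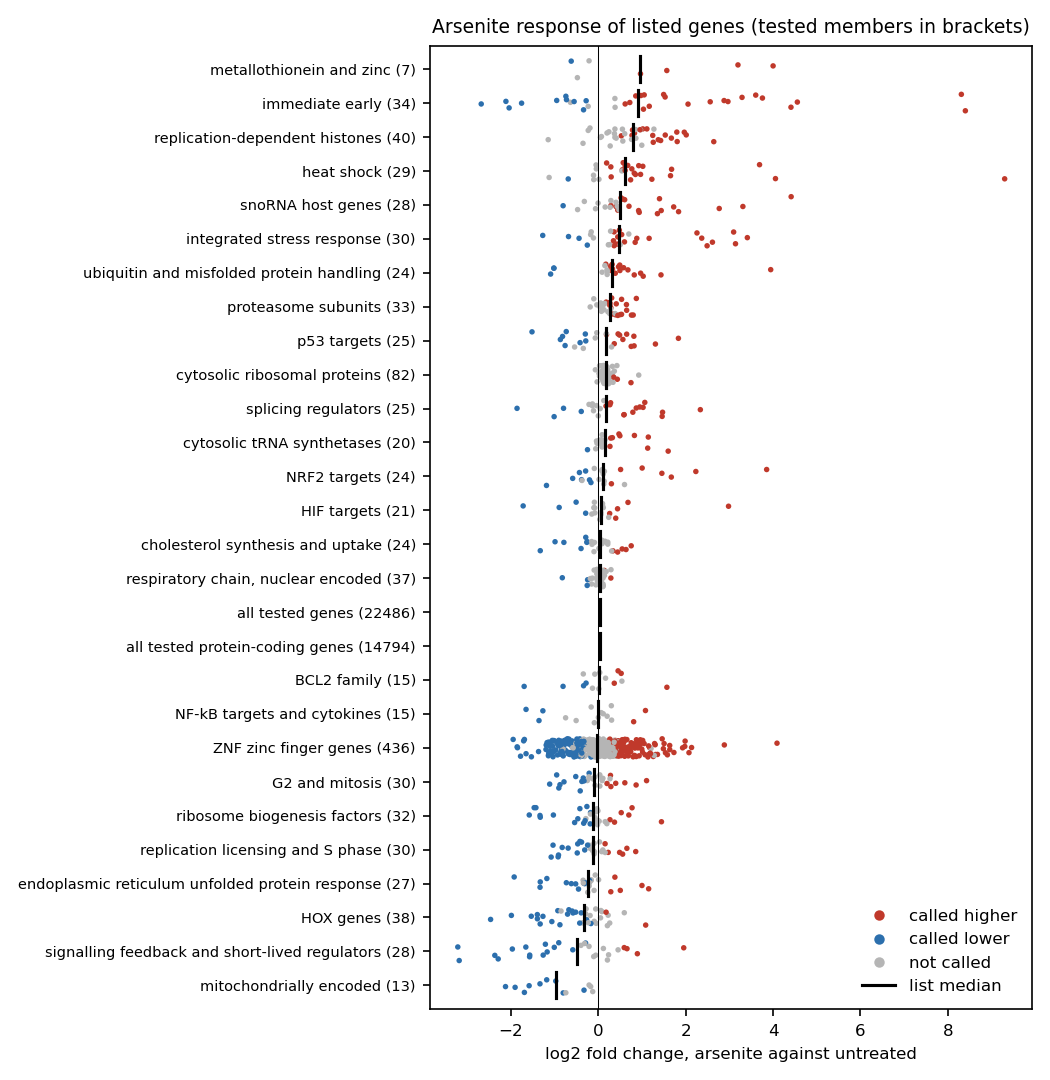
Log2 fold change of every tested member of 26 gene lists in the vector line (points, coloured by call) with the list median (black bar), beside the median of all tested genes. Metallothionein and zinc genes had the highest median, 0.97, and mitochondrially encoded genes the lowest, -0.97, and most lists hold members on both sides of 0.

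Lists tied to DNA damage, survival, inflammation and oxygen held genes called in both directions. Over all protein-coding genes tested 25.3% were called higher and 25.7% lower, and the shares of the BCL2 family (26.7% and 26.7%) and of HIF targets (23.8% and 19.05%) were close to these. Of 25 p53 targets 11 (44%) were called higher and 8 (32%) lower. PLK3 rose by 1.84, the repair gene DDB2 by 1.31, and the cell cycle inhibitor CDKN1A by 0.82, whereas MDM2, the ligase that limits p53, fell by 0.86 and SESN1 by 1.51. Of 15 BCL2 family genes 4 were called higher, among them the survival gene MCL1 (0.53) and the pro-death gene PMAIP1 (0.46), and 4 lower, among them BCL2 (-0.80) and BMF (-1.69). The number called lower in this family was 2 without untreated replicate 1, without untreated replicate 3 or without arsenite replicate 3. Of 15 tested NF-kB targets and cytokines out of 22, RELB (1.08) and NFKB2 (0.81) were called higher, and the inhibitors NFKBIA (-1.65) and TNFAIP3 (-1.35) and the subunit REL (-1.26) lower. Of 21 HIF targets 5 were higher and 4 lower. VEGFA, the vascular growth factor, which is also known as an ATF4 target, went from 14.9, 16.5 and 16.4 CPM to 127, 129 and 122 CPM (2.98 ± 0.09), and the prolyl hydroxylase EGLN3 fell by 1.71.

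Regulators of signalling that feed back on their own pathway or have short-lived transcripts included GAS1 and ID2, the first of the 15 largest falls. Of 28 tested feedback and short-lived regulators out of 29, 15 were called lower and 4 higher, with a median of -0.49. GAS1, a Hedgehog co-receptor, held 17.3, 17.2 and 17.2 CPM untreated and 2.23, 1.84 and 1.62 CPM treated (-3.21 ± 0.13). ID2, an inhibitor of bHLH factors induced by BMP signalling, held 150, 144 and 146 CPM against 17.6, 15.9 and 15.2 CPM (-3.18 ± 0.08). All 4 ID genes fell, with ID4 at -1.96, ID1 at -1.26 and ID3 at -0.90. So did the receptor tyrosine kinase antagonists SPRY1 (-2.28) and SPRY2 (-1.21), the Notch glycosyltransferase LFNG (-2.36), the BMP decoy receptor BAMBI (-1.65) and the Wnt feedback gene AXIN2 (-1.57). The Hippo-pathway gene AMOTL2 rose by 1.96. Of 38 HOX genes tested 19 were called lower and 2 higher: HOXA13 fell by 2.46 and HOXD13 by 1.53, while HOXC4 rose by 1.09. The number of HOX genes called higher was 1 without untreated replicate 2.

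Genes with few exons were called lower in a larger share than genes with many. Of the 15 largest falls, 4 had a single exon and 10 had 2 to 4, and ETAA1, with 6, had the most. Of the 15 largest rises, 1 had a single exon (HSPA6) and 9 had 2 to 4, so genes with few exons were common in both. Among all protein-coding genes tested, 49.0% of single-exon genes were called lower and 11.99% higher. The shares changed stepwise with exon number, to 20.5% lower and 32.5% higher among 6875 genes with 10 or more exons. Single-exon genes had low levels, so the shares were also taken among genes with at least 1 CPM untreated. There 67.9% of single-exon genes and 23.0% of those with 10 or more exons were called lower. In each quartile of untreated level, the share called lower was largest for single-exon genes, at 26.3%, 69.9% and 89.1% in the lower 3 quartiles and 30 of 40 genes in the highest. These shares describe genes, which are not independent replicates, and exon counts were those of the canonical GENCODE transcript. The single-exon genes include the 13 mitochondrially encoded mRNAs, of which 9 were called lower. All 13 lie in the highest quartile of untreated level, and shares without them were not taken.

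**Figure D4:**
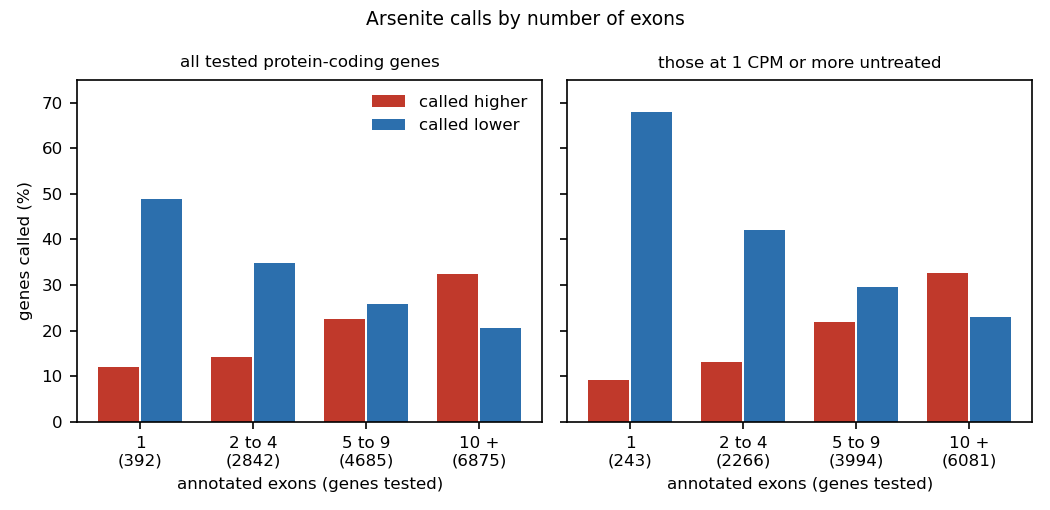
Share of protein-coding genes called higher (red) and lower (blue) after arsenite by number of annotated exons, for all tested genes (left) and for those with at least 1 CPM untreated (right), with the number of genes under each pair of bars. The share called lower falls from 49.0% to 20.5% on the left and from 67.9% to 23.0% on the right. The single-exon genes include the mitochondrially encoded mRNAs.

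Cell cycle genes were called in both directions. Of 30 S phase genes 12 (40%) were called lower and 6 (20%) higher, against 25.7% and 25.3% of all protein-coding genes. PCNA, the sliding clamp, held 224, 219 and 216 CPM untreated and 109, 106 and 108 CPM treated (-1.03 ± 0.08), the GINS subunit gene GINS1 fell by 1.07, and RRM2 fell by 0.68. The licensing genes ORC1, CDT1 and CDC6 rose by 0.86, 0.66 and 0.49. Of 30 G2 and mitosis genes 11 (36.7%) were called lower and 7 (23.3%) higher, with 8 lower under the GC offset with replicate block: cyclin CCNB1 fell by 0.90 and the centromeric histone CENPA by 1.11, while the phosphatase gene CDC25C rose by 1.11 and the spindle gene PRC1 by 0.87. Replication-dependent histone genes gave 18 higher and 0 lower of 40 tested out of 68, with 12 higher without untreated replicate 2. Most of these had low levels, as transcripts that normally lack a poly(A) tail, and their copies are near-identical, so their values are uncertain. H2BC12, at 46.6 ± 1.22 CPM untreated and 94.7 ± 2.96 CPM treated, rose by 1.02.

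Genes for making ribosomes and processing RNA were split. Of 32 ribosome biogenesis factors 14 (43.75%) were called lower and 6 (18.75%) higher, against 25.7% and 25.3% of all protein-coding genes tested. The RNA polymerase I subunit POLR1A held 195, 208 and 217 CPM untreated and 82.3, 84.3 and 80.2 CPM treated (-1.33 ± 0.16). POLR1C fell by 1.46, the assembly factor RRS1 by 1.57 and UTP20 by 1.42, while the box C/D snoRNP proteins NOP58 and NOP56 rose by 1.45 and 0.78. Of 25 splicing regulators 13 were called higher and 4 lower. The kinase CLK1, which phosphorylates SR proteins, went from 27.3, 31.8 and 28.8 CPM to 148, 149 and 147 CPM (2.34 ± 0.09). CLK4, SRSF5, TRA2B and TRA2A rose by 1.46, 1.47, 1.07 and 1.03, whereas CLK2 fell by 1.85 and the speckle protein SON by 1.01.

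Host transcripts of small nucleolar RNAs were mostly higher. Of 28 tested out of 31, 17 were called higher and 1 lower (median 0.50). SNHG17 went from 24.05, 25.3 and 26.2 CPM to 556, 527 and 529 CPM (4.41 ± 0.15), and SNHG15 from 31.1, 31.5 and 30.0 CPM to 320, 291 and 307 CPM (3.31 ± 0.17). SNHG12 rose by 2.77, ZFAS1 by 1.73, SNHG1 by 1.44 and GAS5 by 1.40. These are spliced, mostly noncoding transcripts that are usually removed by nonsense-mediated decay during translation. SNHG16 fell by 0.80. Among 154 annotated snoRNAs tested, 6 were called higher and 34 lower (22.1%, against 21.4% of all tested genes), at a median untreated level of 0.168 CPM. Transcribed unprocessed pseudogenes were called higher in 187 of 373 (50.1%), the highest share of the biotypes with at least 100 tested genes, and lower in 24.

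Mitochondrially encoded mRNAs fell unevenly. Of 13 genes 9 were called lower and 0 higher, the median was -0.97, and the 3 treated libraries lay below the 3 untreated ones in all 13. MT-ATP8 held 249, 244 and 206 CPM untreated and 52.2, 57.2 and 51.6 CPM treated (-2.12 ± 0.20). MT-CO3 held 767, 704 and 740 CPM against 202, 188 and 203 CPM (-1.90 ± 0.10). MT-ATP6, which lies between MT-ATP8 and MT-CO3, fell by 1.69, and MT-ND3, which follows them, by 1.58. MT-CO1 and MT-ND4 were not called, at -0.17 and -0.12, and MT-CO2 stood at -0.32 (adjusted p = 0.022), a call lost in 5 alternatives, 3 of which left out 1 library. Counts of the ribosomal RNAs of the same genome went up. MT-RNR2 held 816, 763 and 752 CPM untreated and 2552, 2538 and 2688 CPM treated (1.74 ± 0.11), and MT-RNR1 rose by 0.51. The libraries were made from messenger RNA, and how far these counts follow total ribosomal RNA was not tested. Of 37 nuclear genes of the respiratory chain 2 were called higher and 3 lower, with a median of 0.04. The number called higher was 1 without untreated replicate 2 or 3 or arsenite replicate 1 or 3.

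**Figure D5:**
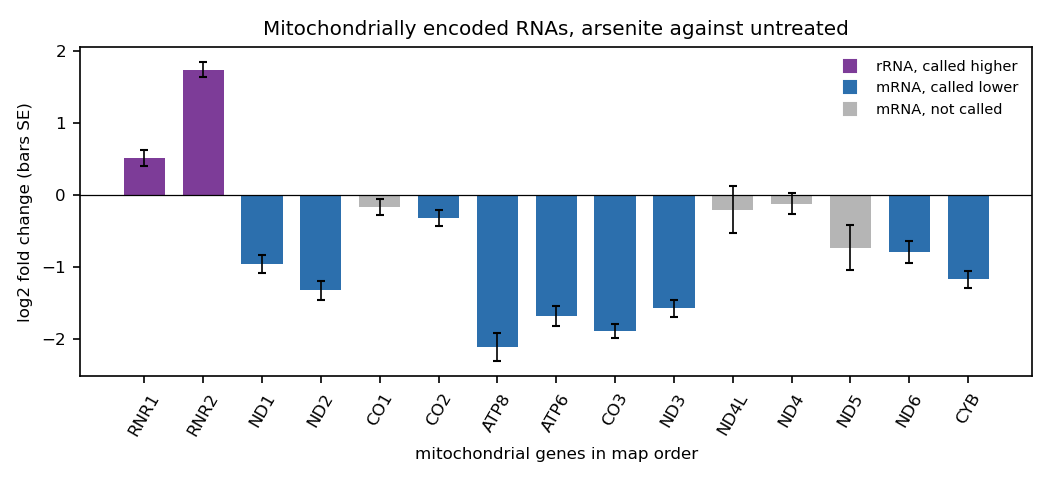
Log2 fold change (bars, with SE) of the 2 ribosomal RNAs and 13 mRNAs encoded by mitochondrial DNA, in map order, in vector cells. The ribosomal RNAs lie above 0, and the adjoining ATP8, ATP6, CO3 and ND3 show the largest falls, from -1.58 to -2.12.

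Cytosolic ribosomal protein genes gave 3 called higher and 0 lower of 82, with a median of 0.18. RPL3 rose by 0.75. The number called higher was 65 when the 6 vector libraries were fitted alone, 43 without the outlying WT libraries, and 1 when any single library other than untreated replicate 3 was left out. Many of these genes share reads with processed pseudogenes. Cholesterol genes gave 5 higher and 7 lower of 24, with the sterol-regulated INSIG1 and SQLE at -1.32 and -0.98. ZNF genes, the large family of zinc finger repressors, gave 118 higher (27.1%) and 125 lower (28.7%) of 436. The cholesterol shares were 20.8% and 29.2%. Both lists were near the 25.3% higher and 25.7% lower of all protein-coding genes tested. ZNF34, at 2.19, 2.02 and 2.0003 CPM untreated and 35.4, 37.8 and 32.7 CPM treated, had the largest rise among them (4.09 ± 0.24).

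Among the largest changes outside the lists, GCM1, a placental transcription factor, went from 0.0823, 0.0672 and 0.128 CPM to 15.01, 17.4 and 14.5 CPM (7.39 ± 0.33). The neuronal bHLH gene NHLH1 rose by 4.60, and the cyclin CCNL1, which takes part in splicing, went from 23.1, 23.0 and 21.7 CPM to 482, 495 and 469 CPM (4.41 ± 0.08). MFSD5, a membrane transporter, fell by 3.13, the Mediator subunit MED9 by 3.09, HPS6, of lysosome-related organelles, by 2.76 and the Integrator subunit INTS5 by 2.47. By change in mean CPM, which is not corrected for gene length, the elongation factor EEF2 gained 2534 CPM, and the cytoskeletal genes TUBB and ACTG1 were lower by -777 and -735 CPM.

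The response was then set against that of the 3 complemented lines, each with its own untreated libraries. At an adjusted p under 0.05, 0 of 22486 genes (0%) differed between the vector line's response and the mean of the other 3, with 477 genes at an unadjusted p under 0.05. DESeq2 called 1 gene, TXNL1. Of the 4962 genes called higher in the vector line, 78.9%, 85.5% and 84.7% were also called higher in WT, DRRD and SxxS, which are 60.6%, 83.7% and 84.4% of those lines' own calls. Of the 4801 called lower, 84.9%, 88.6% and 88.3% were also called lower, which are 72.8%, 88% and 87.9% of those lines' own calls. Among all tested genes, WT, DRRD and SxxS called 28.7%, 22.5% and 22.1% higher and 24.9%, 21.5% and 21.5% lower. The WT values include arsenite replicate 1, a library that stood apart from its group. The log2 fold change of HSPA6 was 9.30 in vector cells and 9.23, 9.82 and 9.39 in WT, DRRD and SxxS, that of DNAJB1 was 3.69 and 3.66, 3.70 and 3.66, and that of GAS1 was -3.21 and -2.99, -3.15 and -3.02.

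TXNL1 had the smallest p in that comparison. It rose by 1.18 in vector cells and by 0.89, 0.75 and 0.89 in WT, DRRD and SxxS, a difference of 0.34 (unadjusted p = 2.11e-05, adjusted p = 0.475). In the complemented lines the counts hold reads of both the edited gene and the introduced one. The adjusted p was 0.00692 when the 2 outlying WT libraries were left out. BAG3 rose by 4.06 against 3.82, 4.004 and 3.84, a difference of 0.17 that did not pass (unadjusted p = 0.0127). NES, which encodes the intermediate filament nestin, stood at 0.75 in vector cells and at -0.09, 0.41 and 0.31 in the others, and also did not pass.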

How the data were processed

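Strand-specific messenger RNA libraries were made from extracted total RNA, sequenced as paired-end reads and aligned by the authors to the GRCh38 primary assembly with qAlign (QuasR). The submitters' notes also name DESeq2. The authors deposited raw read counts per gene for 36 libraries, not normalized or pooled. The annotation release, the strand setting and whether both mates were counted are not given in the sources used here. Strand and mate counting change how overlapping genes and counting error are read. A deposited column of gene lengths was not used, 0 columns were left unmatched to a sample, and 0 rows lacked a gene name.

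Of 42726 genes with a count, 22486 were kept because their untreated vector libraries summed to 10 or more. The test was the robust quasi-likelihood one of edgeR 4.0.16 (R 4.3.3, with limma 3.58.1), fitted to all 36 libraries with TMM scaling and a mean for each group, with Benjamini-Hochberg adjustment over all tested genes and calls at 0.05. Log2 fold changes are arsenite minus untreated, with SE. CPM use TMM-scaled totals, also for genes below the filter. Symbols, exons and GC are from GENCODE release 44 (61369 of 61587 identifiers found, 56987 in the same version). RefSeq promoter windows matched 12960 tested genes by symbol. The code was tested on simulated counts in which 200 genes were changed by a log2 of 1 in size. Of these 150 (75%) were recovered, and 9 of 159 calls (5.66%) were false. No replicate pair was a duplicate (chi-square over its degrees of freedom 3.31 to 9.93). Totals of 45758737 to 127848785 counts leave genes near the filter imprecise.

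The members and gene lists were chosen with earlier results of these data known. Named genes are TXNL1, members of the lists, the 15 largest rises and falls among called protein-coding genes with non-overlapping libraries and at least 10 CPM in the higher group, the 10 largest gains and losses in CPM, the 5 smallest p of the line comparison and the 10 highest genes below the filter. Mitochondrial ribosomal RNAs were named after their values were seen. Some listed genes are counted but not reported here by name. Alternatives were other scalings (DESeq2 size factors, total counts), DESeq2 1.42.0, other filters, only the groups compared, the outlying WT libraries left out, a replicate block, a GC offset, a fold threshold, halved or thinned counts, genes without exon overlap, and each library left out.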

Additional observations from a re-analysis of the deposited data

Results flagged for a closer look

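Genes whose 3 untreated vector libraries summed to under 10 counts were not tested, and some of them had reads in every arsenite library. Of 20240 such genes, 169 had at least 10 counts in each of the 3 treated libraries and 14 reached a mean of 1 CPM. The 10 highest were ranked by their mean CPM with arsenite, which is given here. Their separation from the untreated libraries follows from that choice and was not tested. The number 169 rests on raw counts and so depends on depth, which differed between the groups. HSPA7, annotated as an unprocessed pseudogene beside HSPA6 and near-identical to it, had 81.4, 42.5 and 55.8 CPM (mean 59.9) after 2 counts in all untreated libraries. CRYAB, the small heat shock protein alpha-B crystallin and the only listed heat shock gene that the filter removed, had a mean of 1.94 CPM (2.27, 1.33 and 2.23) and 2 untreated counts. The others were the lymphocyte receptor gene BTLA at 2.68, TAGAP at 2.41, the acetylcholine receptor genes CHRNA2 at 2.36 and CHRM1 at 1.80, the cilium factor FOXJ1 at 1.58, the fucosyltransferase gene FUT3 at 1.19, and the noncoding ENSG00000257002 and LINC02757 at 2.98 and 1.19 CPM. CHRNA2, CHRM1 and LINC02757 had 0 untreated counts.

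Groups of 3 libraries were too small for the test of outlying samples, and no gene passed the test of the difference between lines.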

How the results depend on the processing

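The number of genes called (9763) stayed within 1.5 times of itself, between 8964 and 13223, under the scaling, test, filter, replicate block (9594), GC and depth alternatives and the fits to other sets of groups. It was 13223 with the 6 vector libraries fitted alone and 12676 without the outlying WT libraries. It was 4071 of 9617 (1973 higher, 2098 lower) among genes without exon overlap, where fewer genes were tested, and 2868 (1557 higher, 1311 lower) when a log2 fold change of size 1 or more was also required. Leaving out each of the 6 libraries gave fewer, 8591 to 8827 calls. The replicate numbers did not pair the libraries (correlations of deviations 0.02, 0.09 and -0.03), and among the list counts the block alone moved by over 1.5 times only that of ribosomal proteins called higher, from 3 to 1. The comparison of lines gave 0 calls except 1, TXNL1, by DESeq2 and 1, TXNL1, without the outlying WT libraries. It gave 0 in all 24 fits without 1 library, with 402 to 576 genes at an unadjusted p under 0.05. Of 342 named or listed genes with a call, none changed sign under any alternative that was run, and 44 lost the call in at least 1. HSPA1A lost it in 10 and HSF2 in 12. The median of all genes was 0.01 with DESeq2 size factors and 0.02 with total counts. Arsenite and untreated groups had different depths, and genes near the filter remained imprecise.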
